A study of Mus musculus with 7 samples.

Results

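The genes described here act in thymocytes, the immature T cells that assemble and test their antigen receptors in the thymus. They are Rag1, Rag2, Dntt, Ptcra, Themis, Ccr9, Cd8a, Cd8b1, Cd4 and Arpp21, measured in carotid artery RNA on Affymetrix mouse expression arrays. Every probe set that the platform annotation assigns to exactly 1 of these 10 symbols was taken, which gave 28 of the 45037 probe sets that are not controls, and 10 of 18193 named genes. The 10 genes were chosen with the difference between the crosses in view, so their differences are a description and carry no test.

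All arrays came from ApoE-/+ offspring, heterozygous for a null allele of the gene for apolipoprotein E, a carrier protein in lipoprotein clearance. In the wild-type mother group (3 arrays) a normocholesterolemic wild-type mother was crossed with an ApoE-/- father, and in the ApoE-null mother group (4 arrays) a hypercholesterolemic ApoE-/- mother with a wild-type father. The series asked whether parental hypercholesterolemia bears on the susceptibility of the offspring to atherosclerosis. Both parents differ between the crosses, so the role of the mother and that of the father cannot be told apart. The labels give no age, sex, strain, litter or batch, and do not say whether an array held 1 animal or a pool, so p-values measure only the spread between these samples.

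A thymocyte builds its receptor genes by cutting and rejoining variable segments. RAG1 and RAG2 form the recombinase that makes the cuts, and the product of Dntt, terminal transferase, adds nucleotides at the joins. The product of Ptcra, pre-T alpha, pairs with the first rearranged receptor chain as a checkpoint. Cells that pass carry both the CD4 and the CD8 coreceptors while their receptors are tested against self ligands, a step that needs Themis. Recombination genes are shut off after selection, so they separate thymocytes from the mature T cells of blood, lymph nodes and vessel walls. RAG and terminal transferase also act in B cell precursors.

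The promoters of the genes with the largest differences are shown first, with that of Rag2, which lies next to Rag1 in gene order but was not above background on any array. The windows are the 250 bases before the start site, 5′ to 3′ on the strand of the gene, from RefSeq on GRCm38.p6. Capitals mark CANNTG, the E-box, which E proteins such as those encoded by Tcf3 and Tcf12 bind.
Rag1 (chr2:101649533-101649782, minus strand): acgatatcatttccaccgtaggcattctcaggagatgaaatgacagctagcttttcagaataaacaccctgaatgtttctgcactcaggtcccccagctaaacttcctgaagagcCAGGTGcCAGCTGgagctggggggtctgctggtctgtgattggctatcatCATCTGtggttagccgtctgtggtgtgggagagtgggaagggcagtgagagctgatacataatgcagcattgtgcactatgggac
Rag2 (chr2:101624462-101624711, plus strand): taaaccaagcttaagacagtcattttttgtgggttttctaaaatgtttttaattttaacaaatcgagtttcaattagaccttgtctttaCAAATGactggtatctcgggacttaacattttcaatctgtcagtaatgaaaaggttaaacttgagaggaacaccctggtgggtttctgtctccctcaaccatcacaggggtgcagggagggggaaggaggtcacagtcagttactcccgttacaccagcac
Dntt (chr19:41029025-41029274, plus strand): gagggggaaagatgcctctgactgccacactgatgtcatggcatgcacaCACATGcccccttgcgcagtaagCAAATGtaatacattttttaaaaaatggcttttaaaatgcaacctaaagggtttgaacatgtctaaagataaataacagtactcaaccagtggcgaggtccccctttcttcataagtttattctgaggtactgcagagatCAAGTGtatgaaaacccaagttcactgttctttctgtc
Ccr9 (chr9:123766961-123767210, plus strand): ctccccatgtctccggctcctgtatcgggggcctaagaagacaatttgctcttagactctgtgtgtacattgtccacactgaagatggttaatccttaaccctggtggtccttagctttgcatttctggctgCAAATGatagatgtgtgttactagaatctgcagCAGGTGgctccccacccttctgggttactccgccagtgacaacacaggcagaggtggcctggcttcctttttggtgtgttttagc

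The E-box letters read the same way on both strands. They occurred 3 times upstream of Rag1 and of Dntt, 2 times upstream of Ccr9 and 1 time upstream of Rag2, in windows of which 66.2% of all 32851 held at least 1. TGTGGT, a core sequence read by Runx factors, was searched on both strands and occurred 2 times upstream of Rag1, with 1 match overlapping an E-box, and not in the other windows shown. It was found in 14.0% of all windows. AGATAA, read by GATA factors, occurred 1 time upstream of Dntt and in 9.99% of all windows. These are matches of letters only and were not tested for binding. Of the 10 genes, 8 had an entry in the promoter table.

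Signals are linear MAS5 intensities as deposited. The trimmed mean of every array was 200, so the arrays had been scaled alike, and medians were 36.0 to 42.1. The array carries 27 probe sets for bacterial genes whose RNA is not spiked in, and the highest of these on an array served as its ceiling for background. Ceilings were 10.5, 22.0 and 10 on wild-type mother 1, 2 and 3, and 16.5, 19.0, 20.4 and 10.6 on ApoE-null mother 1, 2, 3 and 4. Between 61.9% and 74.7% of all probe sets lay above the ceiling of their array. The array of wild-type mother 2 stood apart, with a Xist signal of 41.2 where the others had 5174 to 5931. It also had the highest ratio of 3 prime to 5 prime Gapdh signal (7.80 against 5.03 to 6.56) and high skeletal muscle signals. Its highest Y-linked signal, 13.6, was within the 9.6 to 18.9 of the other arrays. The tissue label was borne out by its markers, since all 9 genes of the artery wall list were above the ceiling on every array. The smooth muscle myosin gene Myh11 averaged 5384 ± 592 (SD, n = 3) in the wild-type mother group and 5151 ± 665 (SD, n = 4) in the ApoE-null mother group. The endothelial gene Pecam1 averaged 161 ± 77.2 (SD, n = 3) and 164 ± 52.7 (SD, n = 4).

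Signal was low for most of the 28 probe sets, since 20 had a mean over the 7 arrays of no more than 23.6. Array medians were 36.0 to 42.1. On the ApoE-null mother arrays the strongest sets of Rag1, Dntt, Themis and Ccr9 averaged 148, 112, 102 and 94.45, above these medians. On the wild-type mother arrays they averaged 19.8, 16.8, 26.5 and 9.0. The strongest set of Cd8a was above these medians in both groups, at 88.95 with an ApoE-null mother and 96.5 otherwise. Between crosses, 23 of the 28 sets had the larger mean log2(signal + 2) in the ApoE-null mother group. For 17 of the 28 probe sets, from 9 of the 10 genes, every ApoE-null mother array lay above every wild-type mother array, and for 0 every array lay below. Over all probe sets 3.77% were higher without overlap and 3.24% lower, and nothing is read from this comparison because the genes were chosen on the same contrast. Leaving out wild-type mother 1, 2 or 3 gave counts of 18, 17 and 18, and shares over all probe sets of 8.38%, 8.78% and 7.25%, in that order. On the ApoE-null mother arrays, 9 probe sets from 7 genes exceeded the ceiling on all 4 arrays. On the wild-type mother arrays, 2 exceeded it on all 3, and 6 exceeded it on no array of either group. The same shares over all probe sets were not computed, so nothing is read from these counts. That of the wild-type mother group was also limited by wild-type mother 2, whose ceiling of 22.0 was exceeded by 3 of the 28 sets. In RNA from whole tissue, fewer cells of a type and less RNA per cell cannot be told apart.

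**Figure D1:**
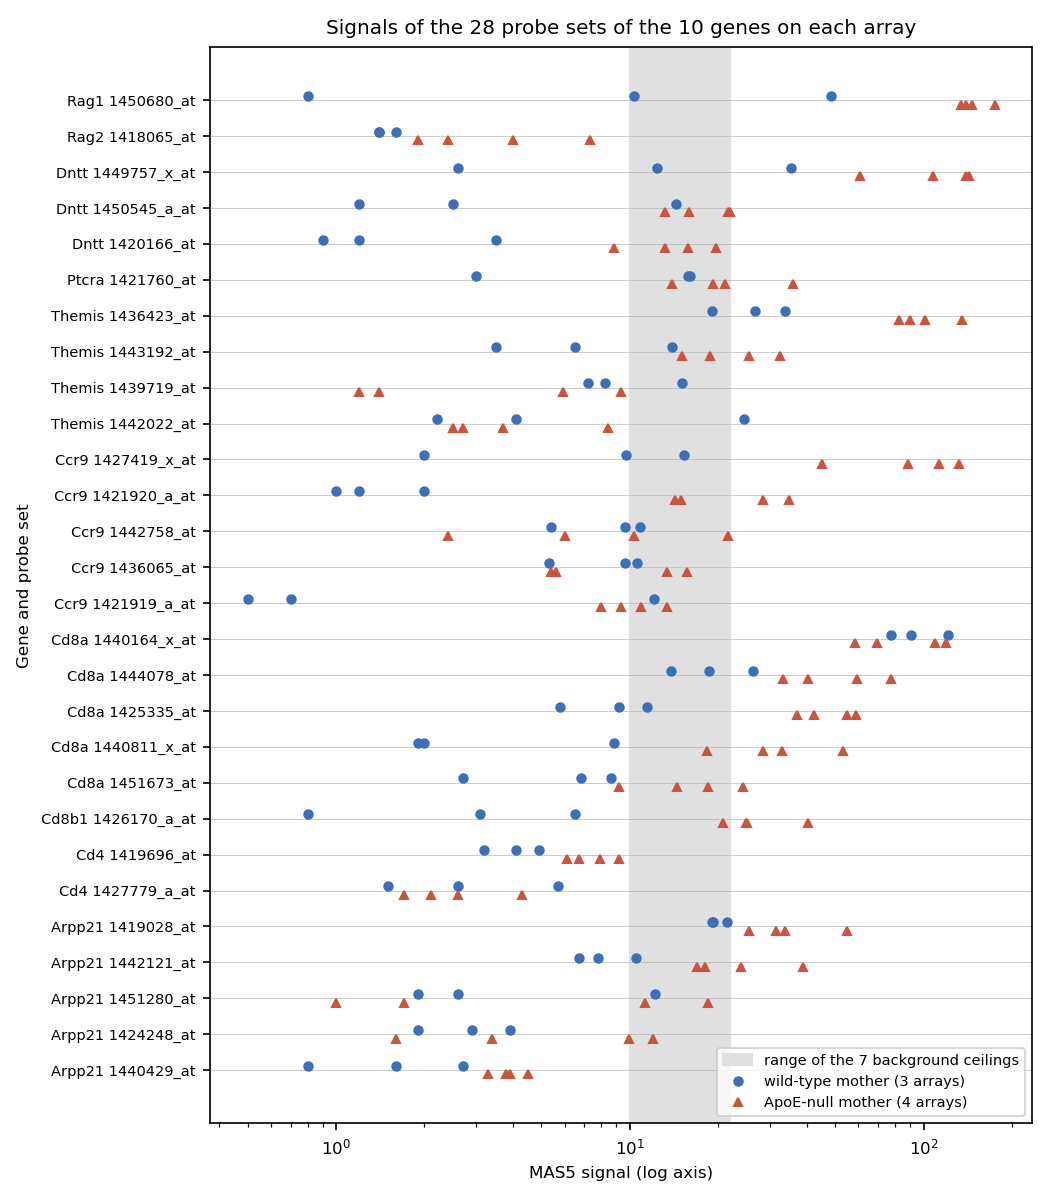
Signal of each of the 28 probe sets (rows, by gene) on each array, on a log axis, with circles for the 3 wild-type mother arrays, triangles for the 4 ApoE-null mother arrays and a band from the lowest to the highest ceiling (10 to 22.0). The triangles of Rag1 lie at 133.8 to 174.4, right of the band, while both probe sets of Cd4 and that of Rag2 lie left of it on all arrays.

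Rag1, the catalytic subunit of the recombinase, had signals of 48.3, 0.8 and 10.3 on the wild-type mother arrays and of 174.4, 145.8, 133.8 and 139.2 on the ApoE-null mother arrays. The groups did not overlap, and the spread in log2 terms lay in the wild-type mother group, where wild-type mother 1 was well above its ceiling, wild-type mother 3 at 10.3 against a ceiling of 10, and wild-type mother 2 below it. Means were 19.8 ± 25.1 (SD, n = 3) and 148 ± 18.1 (SD, n = 4), a log2(signal + 2) difference of 3.64. With 1 of the 7 signals below the ceiling, it was 4.67 when wild-type mother 1 was left out and 2.59 when wild-type mother 2 was. Within the ApoE-null mother group the highest signal of Rag1 was only 1.30 times the lowest, the smallest such ratio among the 28 probe sets.

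Rag2, the partner subunit, was read by 1 probe set, with signals of 1.4, 1.4 and 1.6 against 4.0, 2.4, 1.9 and 7.3. All of these lay below the ceiling of their array, so no level or fold can be given, although the groups did not overlap.

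Dntt, which encodes terminal transferase, was read by 3 probe sets. The strongest, an x_at set, whose probes can match other transcripts, had signals of 35.4, 12.4 and 2.6 on the wild-type mother arrays, and of 138.9, 142.5, 60.7 and 107.4 with an ApoE-null mother. In the wild-type mother group only the first array exceeded its ceiling, and all 4 ApoE-null mother arrays did. The log2(signal + 2) difference was 3.01, and 2.23 without wild-type mother 3. The other sets were near background. For the weakest, 1 of 4 ApoE-null mother arrays exceeded the ceiling and no wild-type mother array did, and for the a_at set the groups overlapped, with 14.4 on wild-type mother 1 against 13.2 to 21.9.

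Ptcra, which encodes pre-T alpha, had signals of 16, 15.8 and 3.0 against 35.9, 21.0, 13.9 and 19.2. The groups overlapped, since ApoE-null mother 3 was below 2 wild-type mother arrays, and 1 of 3 and 3 of 4 arrays exceeded the ceiling. The log2(signal + 2) difference was 0.99, and 0.38 without wild-type mother 3.

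Themis, which encodes a protein of T cell receptor signalling needed for selection, was with Cd8a 1 of 2 genes whose strongest probe set exceeded the ceiling on all 7 arrays. Its signals were 33.7, 26.7 and 19.1 with a wild-type mother and 135.2, 90.1, 101.4 and 82.3 with an ApoE-null mother. The groups were well separated, with means of 26.5 ± 7.30 (SD, n = 3) and 102 ± 23.3 (SD, n = 4). The log2(signal + 2) difference was 1.88, a 3.68-fold difference, and 1.68 to 2.06 when single arrays were left out. A further set of Themis had a difference of 1.41 in the same direction. The other two sets had differences of -1.07 and -0.56, with 1 of their 14 signals above the ceiling, 24.4 on wild-type mother 2.

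Ccr9 encodes the receptor for the chemokine CCL25, which draws lymphocytes to the thymus and small intestine. Its strongest probe set, also an x_at set, had signals of 15.3, 2.0 and 9.7 against 132.1, 112.4, 45.2 and 88.1. All 4 ApoE-null mother arrays were above their ceilings, and of the wild-type mother arrays only wild-type mother 1. The log2(signal + 2) difference was 3.27, and 2.66 without wild-type mother 2. A further set (a_at) was below the ceiling on all wild-type mother arrays, at 1.2, 1.0 and 2.0, and above it on 3 of 4 ApoE-null mother arrays, at 28.3, 34.9, 14.9 and 14.3. Its fold against the ceilings of the wild-type mother arrays was 1.54. This is no lower bound, since ApoE-null mother 3 was below its own ceiling. The remaining 3 sets of Ccr9 overlapped between groups and stayed within 0.5 to 21.6.

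Cd8a and Cd8b1 encode the alpha and beta chains of the CD8 coreceptor and are neighbours in gene order. Cd8b1 had signals of 6.5, 3.1 and 0.8 against 40.5, 24.8, 20.8 and 25.0. It was the 1 probe set of the 28 at or below the ceiling on every wild-type mother array and above it on every ApoE-null mother array, a pattern of 0.0311% of all probe sets, from which nothing is read here. The difference was at least 1.89-fold.

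Probe sets of Cd8a disagreed. The strongest, an x_at set, had signals of 77.7, 121.0 and 90.8 against 118.7, 109.3, 69.5 and 58.3, with overlapping groups and a log2(signal + 2) difference of -0.15, which ranged from -0.31 to 0.03 when single arrays were left out. The other 4 sets were higher with an ApoE-null mother, without overlap, at differences of 1.23 to 2.58. One of these had signals of 11.4, 9.2 and 5.8 against 58.8, 54.8, 37.1 and 42.2, and another of 26.3, 13.8 and 18.6 against 59.4, 77.4, 33.2 and 40.4. All ApoE-null mother signals of both were above the ceiling. The set with the difference of 2.58 was below the ceiling on all wild-type mother arrays. Of the ApoE-null mother arrays, 3 of 4 were above it, so its fold of 2.15 against the ceilings is no lower bound. The direction for Cd8a therefore depends on the probe set, and the mean over its 5 sets gave 1.44.

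Cd4, which encodes the other coreceptor, was not above the ceiling on any array with either probe set. One had signals of 4.1, 4.9 and 3.2 against 7.9, 9.2, 6.1 and 6.7, and the other of 2.6, 5.7 and 1.5 against 2.6, 1.7, 4.3 and 2.1. The first did not overlap between groups and the second did, and both are within the background range, so no level can be stated for Cd4.

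Arpp21 encodes an RNA-binding phosphoprotein known from striatal neurons and from thymocytes. Its strongest probe set had signals of 19.2, 21.4 and 19.1 against 54.9, 33.6, 25.5 and 31.4. The groups did not overlap, ApoE-null mother 1 was highest, and the log2(signal + 2) difference was 0.76, with 2 of 3 and 4 of 4 arrays above the ceiling. A further set was at 10.5, 7.8 and 6.7, at or below the ceiling, against 38.7, 16.9, 18.0 and 23.9, with 2 of 4 arrays above. Its fold against the ceilings was 1.64, which is no lower bound because not every ApoE-null mother array was above its ceiling. The remaining sets had differences of 0.22, 0.64 and 0.70. Groups overlapped for the first and second of these. Only the first exceeded a ceiling on any array, at 12.2 on wild-type mother 3. The summed signal of neuronal markers was highest on wild-type mother 1, at 4076 against 374 to 1354 on the other 6 arrays, and Arpp21 was at 19.2 there. The part of neurons in the Arpp21 signal was not tested.

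**Figure D2:**
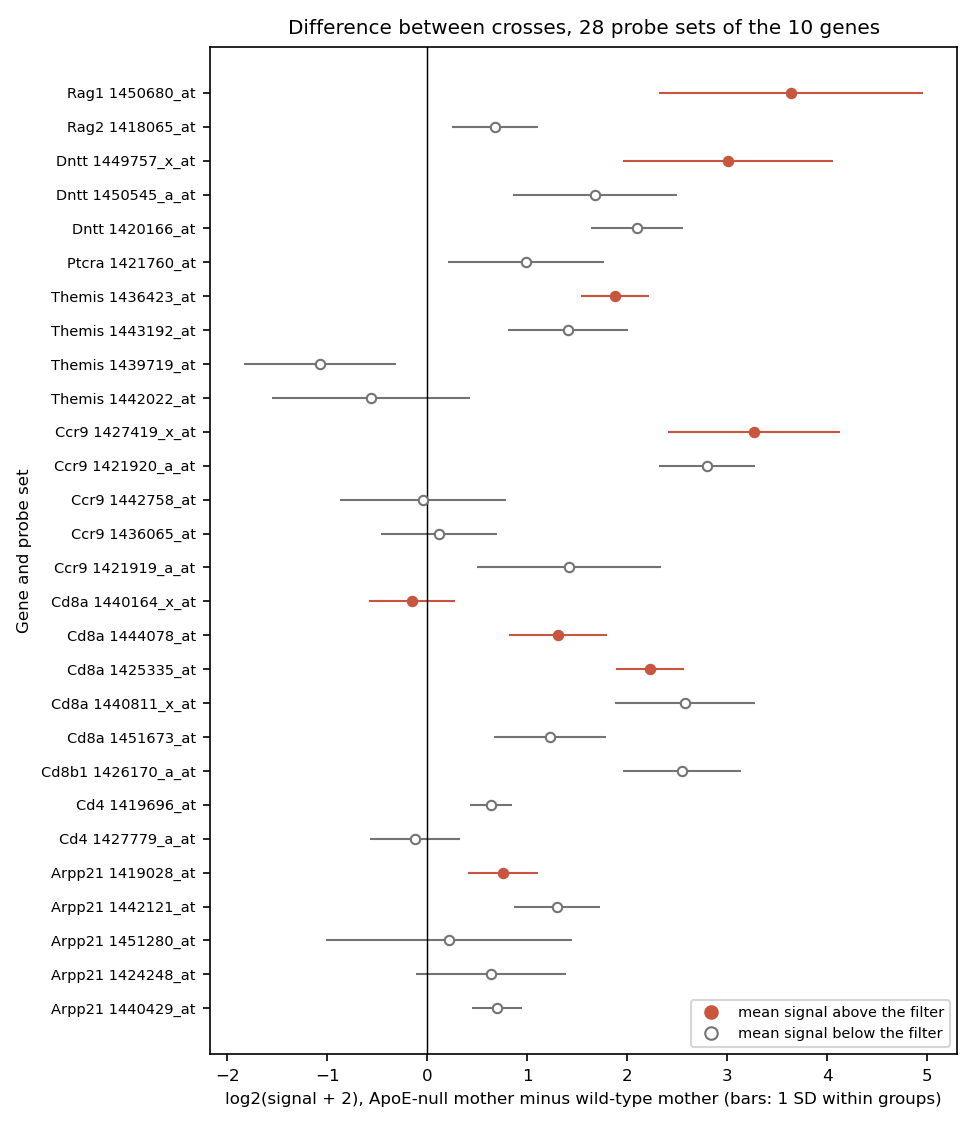
Difference in mean log2(signal + 2) between crosses for each probe set, with bars of 1 SD pooled within groups. Filled points mark the 8 probe sets that passed the filter on low signals (mean over 23.6), which range from -0.15 for 1 set of Cd8a to 3.64 for Rag1, and open points the 20 below it.

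The filter on low signals kept 8 of the 28 probe sets, from 6 genes. A set that was low in 1 group could pass only through the other, so no count over the kept sets is given as support. With each gene read by its strongest probe set and no filter, 9 of the 10 differences were positive, with a median of 1.44, where 9223 of all 18193 named genes were positive with a median of 0.01. This includes Rag2 and Cd4, which were at or below the ceiling on every array; without these 2 genes, 7 of 8 were positive with a median of 2.21. The genes were chosen on this contrast, so these values are a description only. With a pseudocount of 16 in place of 2, the median was 0.84. Over the 28 probe sets, 23 differences were positive, with a median of 1.26 where that of all probe sets was 0.01.

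The order of arrays within each cross was not used in the choice of genes. No share over all probe sets was computed for these orders. Several sets read the same gene, so the counts are a description only. Of the 3 wild-type mother arrays, wild-type mother 1 was highest for 15 of the 28 probe sets and wild-type mother 3 lowest for 14. Of the 4 ApoE-null mother arrays, mother 1 and mother 2 were highest for 11 each, and mother 3 was lowest for 14. By the strongest probe sets of the 8 genes above the ceiling on at least 1 array, wild-type mother 1 was highest for 6, ApoE-null mother 1 highest for 7 and ApoE-null mother 3 lowest for 6. The mean profile of the 6 genes above the filter, each centred on its mean over 7 arrays, was -0.44, -1.64 and -1.47 on the log2 scale with a wild-type mother and 1.34, 1.03, 0.46 and 0.71 with an ApoE-null mother. Of these 6 genes, 4 (Rag1, Dntt, Ccr9 and Arpp21) passed the filter only through the ApoE-null mother arrays, so the step between groups in this profile restates how the genes were chosen. ApoE-null mother 3 also had the second highest ceiling (20.4), and 9 of the 28 sets above it against 14 to 17 on the other 3 arrays of that group. Wild-type mother 2 had 3 of the 28 sets above its ceiling of 22.0, against 12 and 8 on wild-type mother 1 and 3. The part of the ceilings in these orders was not tested.

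**Figure D3:**
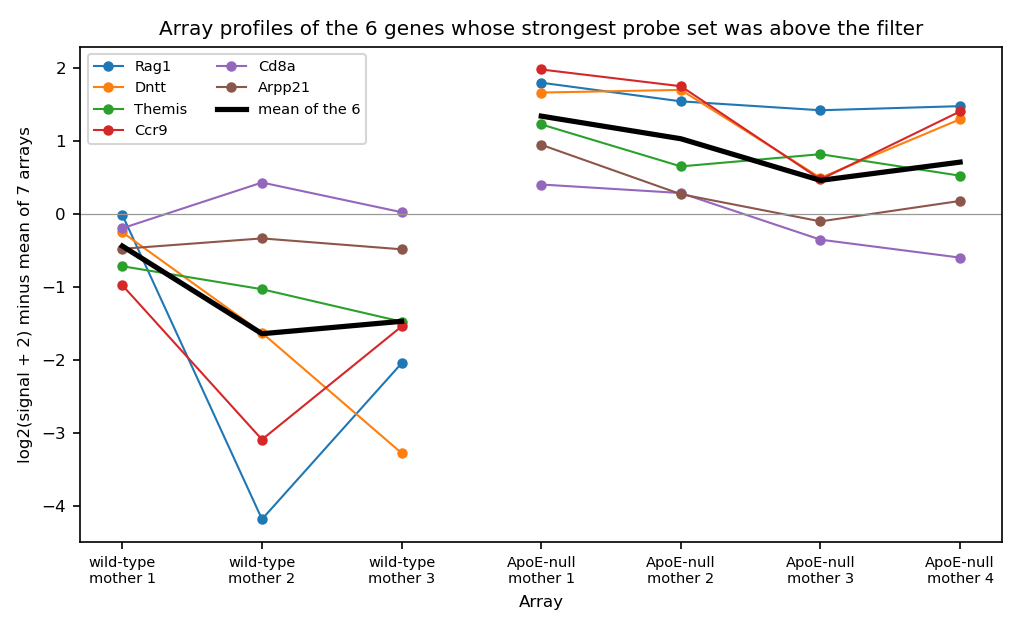
Deviation of log2(signal + 2) from the mean of the 7 arrays for Rag1, Dntt, Themis, Ccr9, Cd8a and Arpp21, each by its strongest probe set, with the mean of the 6 in black. Lines only link the points of a gene within a group; the mean is between -1.64 and -0.44 with a wild-type mother and between 0.46 and 1.34 with an ApoE-null mother, while Cd8a by this probe set does not separate the groups.

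The genes with the array pattern most like that mean were found among 12119 other named genes by the root mean square distance between centred log2 profiles over the 7 arrays. Trbv1, a variable segment of the T cell receptor beta chain, was nearest at 0.24, where the median over the candidates was 1.14. It had signals of 58.8, 34.6 and 22.0 against 216.9, 156.5, 100.8 and 160.2. Tbx5, a transcription factor of heart and forelimb, followed at 0.32, with 16.5, 8.2 and 6.1 against 45.3, 58.7, 20.5 and 30.8. Adcy1, a calcium-stimulated adenylyl cyclase, was at 0.34, Bcl11b, a factor of T lineage commitment, at 0.50, and E2f2, a regulator of cell cycle entry, at 0.53. Trav9d-3, a segment of the alpha chain, Cxadr, a junctional adhesion protein, and Tnnt2, the troponin T of heart muscle, were at 0.57, 0.57 and 0.58. For comparison, the genes that made up the profile were themselves 0.33 (Themis) to 1.22 (Cd8a) away from it. These genes were picked for resembling a profile that carries the contrast itself, so their differences have no test here and support nothing.

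Another 15 gene lists were fitted, covering partners of the thymocyte genes and cells that the sample could hold. They held 167 entries, of which 151 were named on the array and 109 passed the filter. In limma, 0 of the 109 genes passed at an adjusted p under 0.05 (smallest adjusted p = 0.383), and 14 were higher and 7 lower at an unadjusted p under 0.05. Over all kept probe sets, 0.0037% were called higher and 0.0% lower, and at an unadjusted p under 0.05 the shares were 4.3% higher and 3.96% lower. Among the genes counted, Myb, Lat, Cd3d, Cd3g and Cd247 passed the filter only through the ApoE-null mother arrays. Acta1 and Tnnt3 passed it only through the wild-type mother arrays, so nothing is read from these counts. The lists themselves were chosen with earlier results of these data known. Since a gene low in 1 group can pass the filter through the other, counts and medians per list are given over all its named genes, and tests over the measured ones.

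The enzymes that RAG hands its cuts to are shared by all cells. Of 13 named genes for cutting and end joining, all measured, 5 were positive, with a median log2 difference of -0.04. Lig4, the ligase that seals the joins, had signals of 111.7, 90.0 and 82.2 against 113.6, 146.5, 127.6 and 123.1 (log2 difference 0.43, SE 0.18; limma, adjusted p = 0.598). The groups were adjacent without overlap. Xrcc6, which encodes the DNA end-binding protein Ku70, had a log2 difference of 0.28 (SE 0.17; limma, adjusted p = 0.688).

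Among 15 named transcription factors that act on these genes, 8 were positive and the median was 0.02. Myb, a factor of early blood and T cell progenitors, had signals of 33.6, 2.5 and 10.2 against 70.0, 77.7, 62.4 and 95.4, from an x_at set. Its order within the wild-type mother group was that of Rag1, with wild-type mother 1 highest and wild-type mother 2 lowest. Its log2 difference was 2.63 (SE 0.55; limma, adjusted p = 0.383), and that of Bcl11b 1.74 (SE 0.41; limma, adjusted p = 0.434). Myb passed the filter only through the ApoE-null mother arrays, so its p-values support nothing here. Both genes depended on single arrays. They passed without wild-type mother 1 (limma, adjusted p = 0.0352), at 3.39 and 2.33, while Myb was at 1.89 without wild-type mother 2 (limma, adjusted p = 0.221) and Bcl11b at 1.21 without wild-type mother 3 (limma, adjusted p = 0.563).

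Of 11 named genes of selection signalling, 7 were positive, with a median of 0.47. Nr4a1, an immediate target of receptor signals that other cells also induce, had a log2 difference of 0.60 (SE 0.21; limma, adjusted p = 0.549), with overlapping groups. Zap70, the kinase that binds the activated receptor, ran the other way by its strongest probe set, at 451.7, 511.2 and 490.7 against 292.4, 337.8, 360.2 and 287.9 (log2 difference -0.60, SE 0.15; limma, adjusted p = 0.458). Of 11 other named genes of developing T cells, 10 were positive, with a median of 1.04, and 3 of the 7 measured ones passed the filter only through the ApoE-null mother arrays. Cd3d and Cd3g, subunits of the receptor complex, were above the ceiling on no wild-type mother array and on all ApoE-null mother arrays. Against the ceilings they were at least 2.74-fold and at least 2.28-fold higher, and neither passed (limma, adjusted p = 0.458 and 0.459). Cd3e was below the filter, at 4.0 to 6.9 against 7.9 to 23.5, with 1 array above the ceiling.

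Lists for other cells gave the setting of these signals. Of 11 named genes of mature T cells, 9 were positive with a median of 0.59. Icos, a costimulatory receptor, and Il7r, the interleukin 7 receptor, had log2 differences of 0.66 and 0.67 with overlapping groups (SE 0.33 and 0.52; limma, adjusted p = 0.629 and 0.751). Il7r was at 0.05 without wild-type mother 3, at 0.37 without ApoE-null mother 3 and at 1.20 without wild-type mother 1. All 7 leukocyte genes were positive, with a median of 0.20. Their summed signals ran from 1362 to 2039 in the wild-type mother group and from 1759 to 2282 in the other, overlapping because wild-type mother 1 was at 2039. Ptprc, which marks all leukocytes, had signals of 480.8, 195.8 and 221.6 against 449.3, 565.3, 504.6 and 407.1, and Cd53, a leukocyte tetraspanin, a log2 difference of 0.46 (SE 0.21; limma, adjusted p = 0.607). Wild-type mother 1, the array of its group with the highest Rag1 and Dntt, was also that with the highest Ptprc, and the part of leukocyte content in these results was not tested.

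Thymic epithelium is the stroma that supports thymocytes. Of its 15 named genes 9 were positive, with a median of 0.11, and the groups overlapped in summed signal, with 424 to 515 for wild-type mothers against 348 to 618. Foxn1, its master regulator, was at 27.9, 28.1 and 32.2 against 20.6, 21.9, 26.7 and 19.9 (log2 difference -0.38, SE 0.31; limma, adjusted p = 0.766). It passed the filter only through the wild-type mother arrays, so nothing is read from its difference or p-value. Ccl25, the ligand of Ccr9, was below the filter, at 17.2, 20.5 and 11.0 against 25.8, 21.7, 26.9 and 20.3. Prss16, a protease of cortical epithelium, overlapped at 11.5 to 22.9 against 19.0 to 32.2. Of the 15 genes, 8 were above the ceiling on every array, Foxn1 and Prss16 among them. On single arrays 61.9% to 74.7% of all probe sets were above it, so nothing is read from this count. Prss16 was below the filter and close to the ceiling, at 22.9 against 22.0 on wild-type mother 2 and 21.0 against 20.4 on ApoE-null mother 3. Psmb11 and Aire were at or below the ceiling on every array. The epithelial genes Krt5 and Epcam, which other epithelia share, had log2 differences of 0.78 and 0.53 (SE 0.49 and 0.33; limma, adjusted p = 0.692 for both), and without wild-type mother 1 of 0.25 and 0.32.

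The B lineage list covers the other cells that use RAG. Of its 10 named genes 5 were positive, with a median of -0.08. The 4 measured genes were positive, but Ms4a1 among them passed the filter only through the ApoE-null mother arrays, so nothing is read from this count. Of the 6 below the filter 5 were negative, among them Pax5, the factor of B cell identity, at -0.78 and Vpreb3 at -0.60. Pax5 exceeded the ceiling on 1 array of each group, and Vpreb3 on 2 wild-type mother arrays and 0 ApoE-null mother arrays. No change can be stated from such signals. Ebf1, which fat and stromal cells express too, and Cd22, a B cell lectin, had log2 differences of 0.26 and 0.62 (SE 0.15 and 0.30; limma, adjusted p = 0.678 and 0.627). Summed signals were 715 to 820 against 791 to 994. Ebf1 alone gave 527 to 663 and 633 to 815 of these, so the sums are not read as B cells. The precursor genes Vpreb1 and Igll1, parts of the surrogate light chain, were below the filter. Vpreb1 was at 14.3 to 20.7 against 2.1 to 22.2, and Igll1 at 2.1 to 14.9 against 3.3 to 8.8, with no ApoE-null mother array of Igll1 above its ceiling. Cd79a, a subunit of the B cell receptor, was at or below the ceiling on every array.

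The list labelled lymph node stroma also holds lymphocyte genes such as Ltb. Of its 8 named genes 5 were positive, with a median of 0.47. The 2 measured were Ltb and Cxcl13, with log2 differences of 1.06 and 0.55 and overlapping groups (SE 0.51 and 0.28; limma, adjusted p = 0.619 and 0.642). Ltb passed the filter only through the ApoE-null mother arrays, so nothing is read from its difference or p-value. Summed signals were 89.2 to 116.5 against 126.6 to 221.4, and as the list mixes cells these sums are not read as stroma. Glycam1 and Tnfsf11 were at or below the ceiling on every array. The thyroid and parathyroid list had 3 of 7 named genes positive and a median of -0.04, with Tshr at -0.34 and Slc5a5 at 0.23 (SE 0.31 and 0.39; limma, adjusted p = 0.789 and 0.894). The myeloid and dendritic list had 9 of 10 positive and a median of 0.09. Siglech, a gene of plasmacytoid dendritic cells, was at -1.03 and Flt3, a receptor of dendritic precursors, at 0.53 (SE 0.42 and 0.32; limma, adjusted p = 0.585 and 0.683). As Flt3 passed the filter only through the ApoE-null mother arrays, nothing is read from its values. Dividing-cell genes had 5 of 7 positive and a median of 0.41, with Pcna at 0.41 and Mcm5 at -0.28 (SE 0.17 and 0.19; limma, adjusted p = 0.590 and 0.729).

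Neuronal genes were negative in 9 of 9, with a median of -0.73, led by wild-type mother 1. Uchl1 and Chga had log2 differences of -0.78 and -1.51 (SE 0.27 and 0.72; limma, adjusted p = 0.546 and 0.616). Chga passed at -2.70 without wild-type mother 3 (limma, adjusted p = 0.0309), but was at -0.87 without wild-type mother 1 and at -0.98 without wild-type mother 2 (limma, adjusted p = 0.739 and 0.716). Uchl1 was at -0.39 without wild-type mother 1. Skeletal muscle genes were negative in 8 of 8, with a median of -1.50 and summed signals of 2296 on wild-type mother 2 against 143 to 243 elsewhere. Acta1 and Tnnt3 had log2 differences of -3.06 and -1.49 (SE 1.0 and 0.61; limma, adjusted p = 0.523 and 0.585). The artery wall list had 4 of 9 positive and a median of -0.02, with Tek at 0.49 and Cdh5 at -0.29 (SE 0.18 and 0.20; limma, adjusted p = 0.550 and 0.727).

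**Figure D4:**
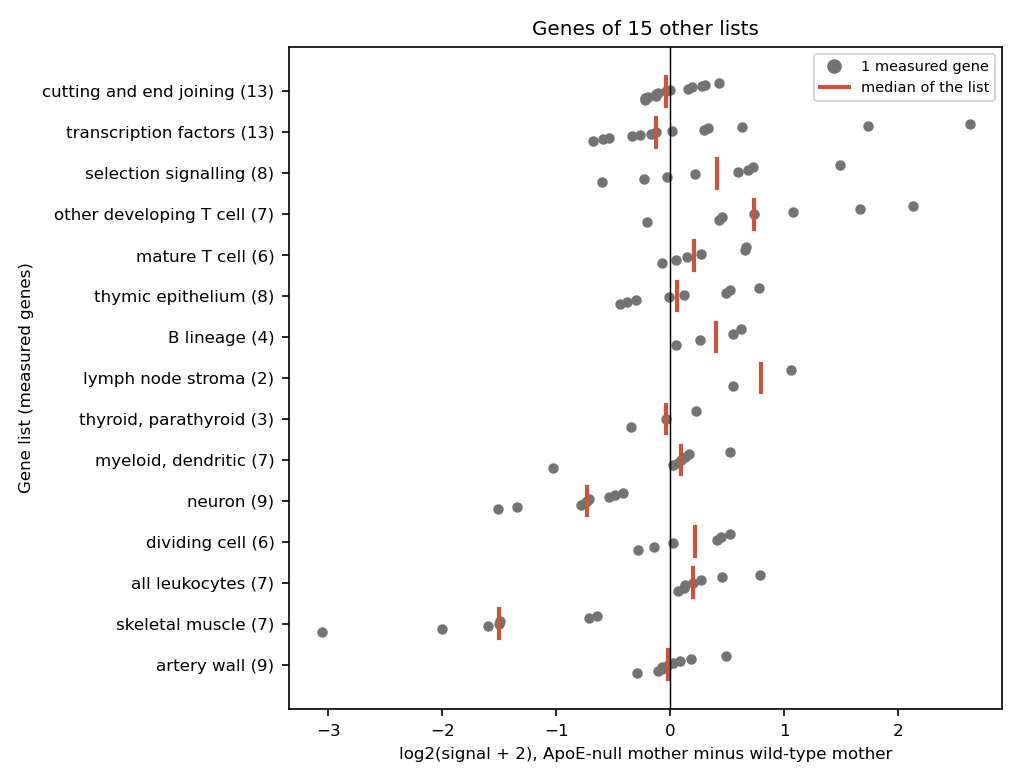
Difference in log2(signal + 2) between crosses for each measured gene (points) of the 15 other lists, with the list median as a bar and the number of measured genes in brackets. The medians, over measured genes only, run from -1.50 for skeletal muscle to 0.80 for the 2 genes of the list labelled lymph node stroma, and that of thymic epithelium is 0.06. The median of 0.80 includes Ltb, which passed the filter only through the ApoE-null mother arrays. Over all 8 named genes of that list the median is 0.47.

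**Figure D5:**
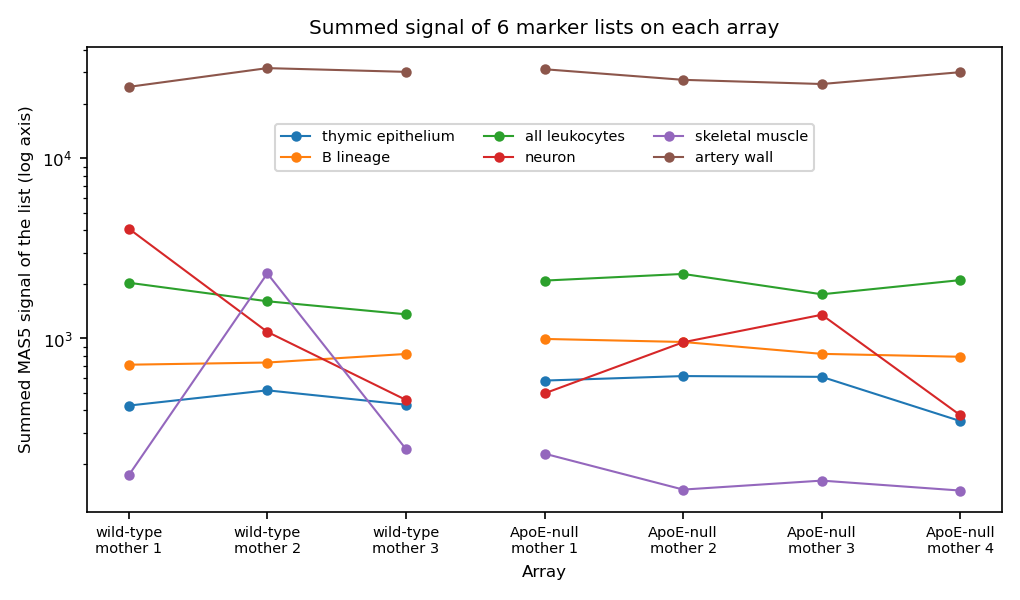
Summed signal of 6 marker lists on each array, on a log axis, with lines only linking arrays of a group. Wild-type mother 1 is high for neuronal genes (4076), wild-type mother 2 for skeletal muscle genes (2296), and the leukocyte sums of the groups overlap. Most of the B lineage sum is the signal of Ebf1, which fat and stromal cells express too.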

How the data were processed

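Carotid artery RNA of 7 samples was hybridised to Affymetrix mouse arrays. The authors deposited MAS5 intensity values per probe set, with MAS5 and GCOS named per the submitters' processing notes, in versions not given in the sources used here. Per the labels' protocols, RNA was amplified in 2 cycles with oligo-dT priming, which favours 3 prime ends. Depth has no meaning here, and the number of arrays limits the precision. Groups follow the cross in the labels.

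Of 45101 probe sets, 34958 had 1 symbol in the platform annotation, 932 several and 9211 none. Only those with 1 were named. The 64 control probe sets were left out, and values were transformed to log2(signal + 2). The added 2 shrinks differences of low signals but is far below the ceilings of 10 to 22.0. Signals below the ceiling can therefore still enlarge a difference. That of Rag1 was 3.64, and 2.42 with a pseudocount of 16. The 27027 probe sets with a mean above the 40th percentile of means (23.6) were kept. The strongest probe set stood for a gene. limma 3.58.1 under R 4.3.3 (lmFit, eBayes with an intensity trend) compared the crosses (positive values are higher with an ApoE-null mother), and p-values were adjusted by Benjamini-Hochberg over every probe set that passed the filter. It was tested on simulated data. A fold against the ceilings sets the mean log2(signal + 2) of one group against that of the ceilings of the other. It is given as "at least" only where every array of the first group was above its ceiling.

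The genes and lists were chosen with earlier results of these data known. The named genes were all 10 thymocyte genes, the 2 genes of smallest p per list, fixed defining genes and the 8 nearest profiles. Alternatives were the pseudocount, scaling, filter, intensity trend, array weights, ceiling, averaging of probe sets and leaving out each array. Leaving out arrays for counts against background or overlap shares, and scaling for the order of arrays within a cross, were chosen after seeing the data.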

Additional observations from a re-analysis of the deposited data

Results flagged for a closer look

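In 74 probe sets checked over the 4 ApoE-null mother arrays on the log2(signal + 2) scale, 2 had 1 array far from the other 3, measured as the gap to the nearest array divided by the whole range. Chance gives about 1 in 20. No probe set of the 10 thymocyte genes was among them. Icos (gap share 0.896) was at 28.7 on ApoE-null mother 4 and at 52.7 to 56.5 on the other 3 arrays. Igll1 (gap share 0.948) was at 8.8 on ApoE-null mother 2 and at 3.3 to 3.5 on the others, all below their ceilings.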

How the results depend on the processing

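The median difference of the 10 genes was 1.44, and 1.20 to 1.68 when single arrays were left out, 1.40 after quantile normalization, 1.42 after scaling to a common median and 1.22 with probe sets averaged. It was 0.84 with a pseudocount of 16, which by its construction shrinks differences of low signals. Cd8a turned from -0.15 to 1.44 when its probe sets were averaged, and with averaging Themis was at 0.41 and Ccr9 at 1.52. Of the 28 probe sets 17 did not overlap, with 15 after quantile normalization and 17 to 18 without single arrays. Probe sets above background on all 4 ApoE-null mother arrays numbered 9, 9 to 12 when single arrays of that group were left out, and 14 with the second highest bacterial probe set as ceiling. By the strongest probe set, wild-type mother 1 was the highest of its group for 6 of 10 genes, and for 5 after scaling to a common median. Calls in the other lists stayed at 0 in limma under each alternative with all arrays. Without single arrays they numbered 0 to 2, with Myb and Bcl11b without wild-type mother 1 and Chga without wild-type mother 3. The cause was not tested, and Myb passed the filter only through the ApoE-null mother arrays. Over all probe sets limma called 1, and 0 without an intensity trend, 2 after quantile normalization or with array weights, and 16 higher and 2 lower without wild-type mother 1. No paired analysis was possible because the labels number no pairs between the crosses. Low signals near the ceilings limit all folds.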
